A study of Homo sapiens with 10 samples.

Results

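The 8 genes described here are MYC, CCND1, SOX9, CD44, FOSL1, ETS2, BIRC5 and NKD1, a named set of genes known as targets of Wnt signalling. They were followed by symbol through a ribosome profiling and mRNA-seq table, a list of RNAs recovered with a YTHDF1 antibody, and a pair of m6A peak lists, which together name 10934 genes. Members present were 7 of 8 in the expression table, 4 in the RIP list, 8 in m6A list 1 and 7 in m6A list 2. MYC was the member absent from the expression table, so its mRNA and footprints after knockdown were not analysed here.

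When a Wnt ligand binds its receptor, beta-catenin escapes degradation, enters the nucleus and joins TCF and LEF factors on target promoters. In the intestinal epithelium this programme maintains the stem cells of the crypt, and it is switched on in most colorectal cancers. YTHDF1 is a cytoplasmic reader protein that binds mRNA carrying N6-methyladenosine (m6A) and is known for promoting translation of the mRNAs it binds.

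All samples were HCT116, a human colorectal cancer cell line that carries an activating mutation of CTNNB1, the beta-catenin gene. Footprints, the mRNA fragments that ribosomes shield from nuclease, and mRNA were each profiled in 2 libraries of YTHDF1 knockdown cells (shY1-1 and shY1-2, here knockdown 1 and knockdown 2) and in 1 control library, named shGFP in the file header. RIP with a YTHDF1 antibody and its whole cell lysate input had 1 library each, and m6A-seq had 2 replicates, all labelled as control cells. Every sample carries the label of a 3 min treatment with cycloheximide at 100 ug/ml. The question behind the series was which mRNAs YTHDF1 regulates at the level of translation.

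YTHDF1 mRNA stood at 8.62 and 7.81 in the knockdown libraries, against 27.4 in the control, and its footprints at 16.96 and 19.9, against 61.4 in the control. With limma its unadjusted p was 0.00549 for mRNA and 0.00456 for footprints, and the adjusted p of 1.00 and 0.552 did not pass. Deposited values over all genes summed to between 938928 and 1227320 in footprint libraries and between 339763 and 345044 in mRNA libraries, in a relative unit, so the read depth is unknown. Epithelial markers were present in 7 of 12 cases (EPCAM, CDH1, KRT8, KRT18, KRT19, KRT20 and CDX2), with summed mRNA values of 5501 and 3404 in the knockdown libraries and 3922 in the control. Fibroblast markers were present in 3 of 10 cases, with summed mRNA values of 7.13 and 6.35 in the knockdown libraries and 7.505 in the control, and blood cell markers in 1 of 10 (CD68), with mRNA values of 4.98 and 19.9 in the knockdown libraries and 19.9 in the control. The part of these marker sums in the results was not tested. The labels do not say whether libraries came from separate cultures, so p-values measure only the spread between these libraries, which may be technical. Nor do they say whether the knockdown libraries had different hairpin RNAs against YTHDF1 or repeats of the same hairpin. Any difference between hairpins would be part of that spread and of differences between the knockdown libraries, and was not tested. YTHDF1 itself did not pass, so not passing in limma does not show that a gene is unchanged. In lysates of many cells, fewer cells carrying an mRNA and less of it per cell cannot be told apart.

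Footprints of CCND1, BIRC5, FOSL1, ETS2 and NKD1 stood below the control in both knockdown libraries, those of SOX9 above it in both, and those of CD44 on either side. The 7 members had a median log2 change of -0.57, beside -0.28 over all 6782 genes tested. No member passed limma at an adjusted p of 0.05, while 2 genes of the whole table did (0.0295%). Being below the control in both libraries was common, at 51.2% of all genes. It was seen in 5 of 7 members as deposited and with median centring of the libraries, where the share of all genes was 30.9%. With median centring some margins were small, at -0.009 for NKD1 in knockdown 1, and -0.01 for BIRC5 and -0.06 for ETS2 in knockdown 2. The log2 differences of CCND1 were then -0.25 and -0.22, and those of FOSL1 -1.28 and -0.38. With quantile normalisation the count was 4 of 7, beside 32.9% of all genes, and NKD1 was the member that no longer counted.

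Of the regulators of growth and survival, CCND1 (chromosome 11, 69641156 to 69654474), which encodes cyclin D1 and drives cells through G1, had footprint values of 1235 and 1153 in knockdown 1 and knockdown 2, against 1717 in the control. Both knockdown libraries were lower and close to each other. The log2 change was -0.52 ± 0.27 (SE), with limma adjusted p = 0.585. BIRC5 (chromosome 17, 78214253 to 78225635) encodes survivin, which acts in chromosome segregation and inhibits apoptosis. Its footprint values were 416 and 623 in knockdown 1 and knockdown 2, against 804 in the control. Knockdown 1 was the lower, and the log2 change of -0.66 ± 0.37 (SE) had limma adjusted p = 0.602.

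Among the transcription factors, FOSL1 showed the lowest footprint values relative to the control. FOSL1 (chromosome 11, 65892049 to 65900545) encodes FRA1, a partner of JUN proteins in AP-1. It stood at 114 and 195 in knockdown 1 and knockdown 2, against 325 in the control, or 35.0% and 60.1% of the control. Its log2 change of -1.12 ± 0.43 (SE) ranked at the 9.13th percentile of tested genes. The unadjusted limma p of 0.0386 was under 0.05, as for 8.85% of all genes, and the adjusted p of 0.552 did not pass, with a range of 0.0864 to 0.944 over the alternative settings. ETS2 (chromosome 21, 38805183 to 38824955), an ETS family factor, stood at 36.9 and 53.1 in the knockdown libraries, against 71.0 in the control. Its log2 change was -0.67 ± 0.49 (SE), with limma adjusted p = 0.656.

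SOX9 (chromosome 17, 72121020 to 72126416), a transcription factor of crypt stem and Paneth cells, was the member with higher footprints. It stood at 22.7 and 10.1 in knockdown 1 and knockdown 2, against 8.32 in the control. The knockdown libraries differed from each other by more than knockdown 2 differed from the control. The log2 change was 0.80 ± 0.68 (SE), with limma adjusted p = 0.698. CD44 (chromosome 11, 35139171 to 35232402), a surface receptor for hyaluronan and a marker of crypt stem cells, stood at 1069 and 902 in the knockdown libraries, against 999 in the control. The control lay between them, and the log2 change of -0.02 ± 0.39 (SE) turned positive with median centring and quantile normalisation. NKD1 (chromosome 16, 50548396 to 50649249), which binds Dishevelled and restrains the pathway as a feedback inhibitor, had low footprint values of 2.90 and 1.45 in the knockdown libraries and 3.59 in the control. At such levels the added pseudocount of 1 damps the log2 change, which was -0.57 ± 0.54 (SE) with limma adjusted p = 0.731.

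**Figure D1:**
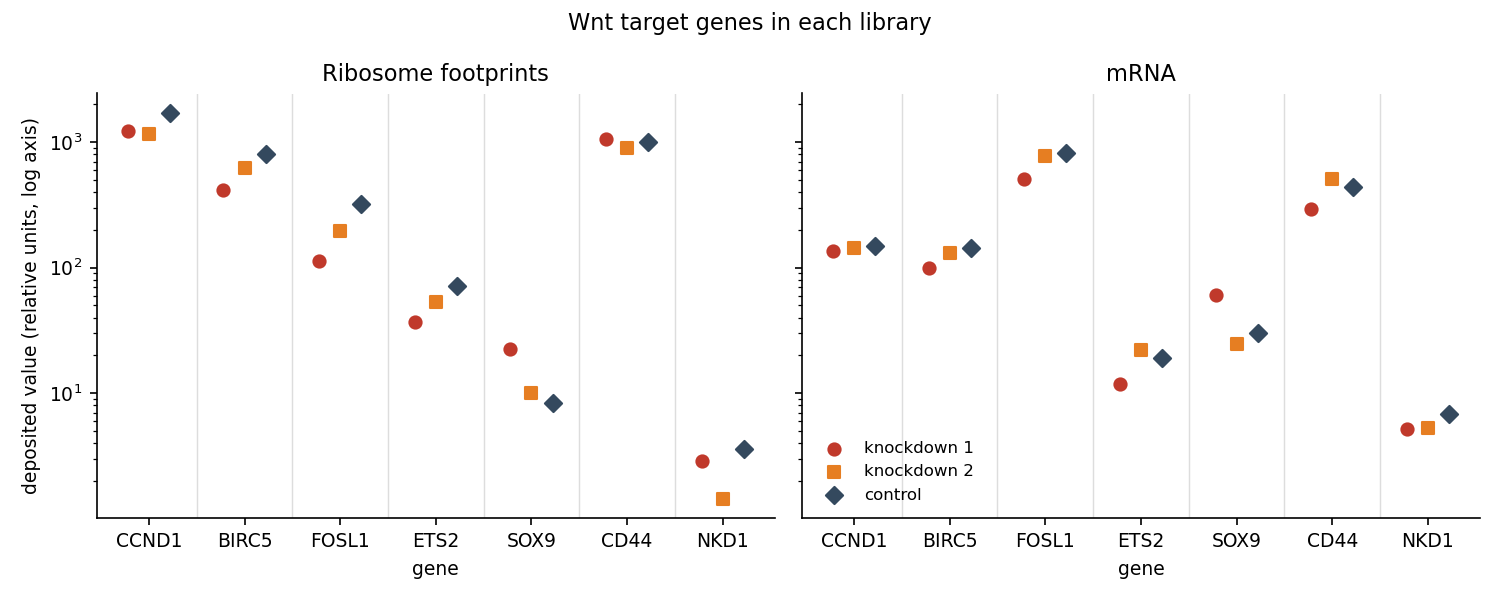
Deposited footprint values (left) and mRNA values (right) of the 7 members present in the expression table, on a log axis in relative units, with 1 point for each library. Footprint points of CCND1, BIRC5, FOSL1, ETS2 and NKD1 lie below the control point in both knockdown libraries, while mRNA points lie closer to the control in knockdown 2 than in knockdown 1.

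At the mRNA level no member was above the control in both knockdown libraries, beside 30.9% of all genes. CCND1, BIRC5, FOSL1 and NKD1 were below the control in both libraries, 4 of 7 members beside 29.9% of all genes. No gene of the table passed in limma (0%), while 32 (0.472%) had an unadjusted p under 0.05, none of them a member. The median log2 change of the members was -0.54 in knockdown 1 and -0.08 in knockdown 2, beside -0.04 and 0.02 over all genes.

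FOSL1 mRNA stood at 506 and 774 in knockdown 1 and knockdown 2, against 816 in the control. BIRC5 mRNA stood at 99.1 and 132, against 145 in the control. In both genes knockdown 1 was set apart, and knockdown 2 was within 10 percent points of the control at 94.9% for FOSL1 and 91.4% for BIRC5. CCND1 mRNA varied least, at 135 and 143 in the knockdown libraries, against 149 in the control. NKD1 mRNA stood at 5.18 and 5.27 in the knockdown libraries, against 6.85 in the control. Its knockdown libraries nearly coincided, at 75.7% and 77.0% of the control.

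The other 3 members had knockdown libraries on opposite sides of the control. SOX9 mRNA was above the control in knockdown 1 alone, at 60.4 and 24.8 in knockdown 1 and knockdown 2, against 29.9 in the control. ETS2 mRNA stood at 11.8 and 21.98 in the knockdown libraries, against 19.1 in the control, and CD44 mRNA at 294 and 505, against 443 in the control. For SOX9, ETS2 and CD44 the mean change therefore took the other sign when knockdown 1 of the mRNA libraries was left out. The fitted log2 changes of all 7 members lay between -0.38 and 0.37, with limma adjusted p = 1.00 for each.

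Translational efficiency, the change in footprints beyond that in mRNA, was lower than the control in both numbered pairs for CCND1, BIRC5, FOSL1 and ETS2, 4 of 7 members, beside 52.0% of all genes. With median centring or quantile normalisation the count was 3 of 7, since BIRC5 lay above the control in knockdown 2, and the shares of all genes were 33.1% and 35.2%. The members' median log2 change of -0.32 was near the -0.27 of all genes. No gene passed in limma (0%), while 185 (2.73%) had an unadjusted p under 0.05, none of them a member.

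FOSL1 had the lowest member value, with log2 differences of -0.82 in knockdown 1 and -0.66 in knockdown 2. The fitted change was -0.74 ± 0.61 (SE), which is -0.47 once the median over the table is subtracted, with limma adjusted p = 0.996. Left-out libraries moved it by over 1.5 times, to -0.35 without knockdown 1 and -1.12 without knockdown 2 of the footprint libraries, though not in sign. Without knockdown 1 of the mRNA libraries it was -1.04, and without knockdown 2 of them -0.43. CCND1 had differences of -0.33 and -0.51, a fitted change of -0.42 ± 0.39 (SE). ETS2 had differences of -0.28 and -0.61, and BIRC5 of -0.41 and -0.24. On the higher side SOX9 had differences of 0.35 and 0.51. In knockdown 1 both its footprints and its mRNA were above the control, and in knockdown 2 its footprints were above and its mRNA below. The fitted change of SOX9 was 0.43 ± 0.96 (SE), with limma adjusted p = 0.996, and it took the other sign without knockdown 1 of the footprint libraries or without knockdown 2 of the mRNA libraries. CD44 had differences of 0.69 and -0.33, and NKD1 of 0.11 and -0.58.

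**Figure D2:**
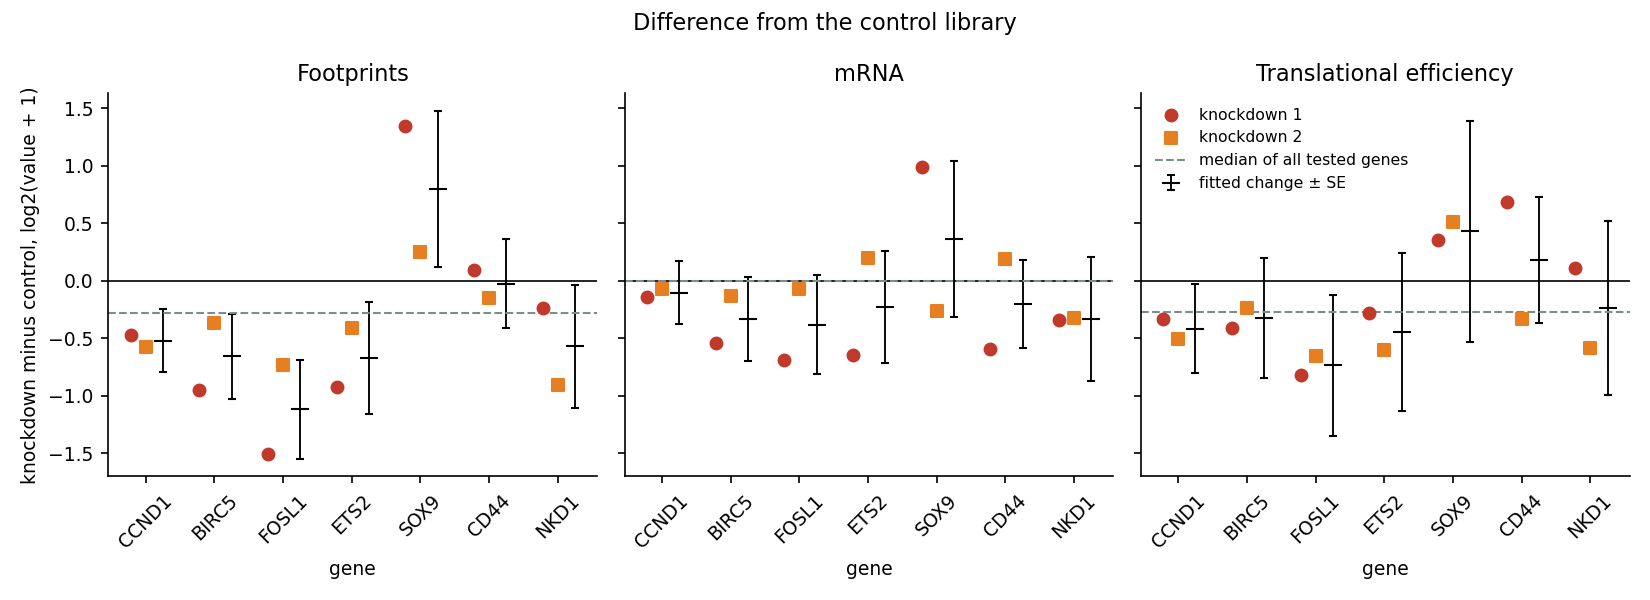
Knockdown minus control on the log2(value + 1) scale for footprints, mRNA and translational efficiency, with 1 point for each knockdown library, the fitted change with its SE, and a dashed line at the median of all 6782 tested genes. FOSL1 lies below that line in both knockdown libraries for footprints and for translational efficiency, and SOX9 lies above it in both.

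Within each library the ratio of footprint value to mRNA value placed the members at both ends of the table. The unit of each assay is not named, so the ratio carries no absolute meaning and only its order among genes was used. CCND1 lay high, at the 94.7th and 94.3rd percentile in knockdown 1 and knockdown 2 and the 95.3rd in the control. BIRC5 lay at the 77.9th and 84.8th percentile in the knockdown libraries and the 81.6th in the control, and ETS2 at the 67.3rd and 63.2nd, against the 68.7th in the control. FOSL1 lay at the 4.76th and 5.16th percentile in the knockdown libraries and the 6.72nd in the control, so its ratio was low in the control too. SOX9 lay at the 8.42nd and 10.03rd percentile in the knockdown libraries and the 3.86th in the control, and NKD1 at the 13.9th and 5.87th, against the 10.5th in the control. CD44 was near the middle in knockdown 2 and the control, at the 51.1st and 49.0th percentile, and at the 72.8th in knockdown 1. For each member except CD44, the libraries differed by less than 10 percentile points.

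**Figure D3:**
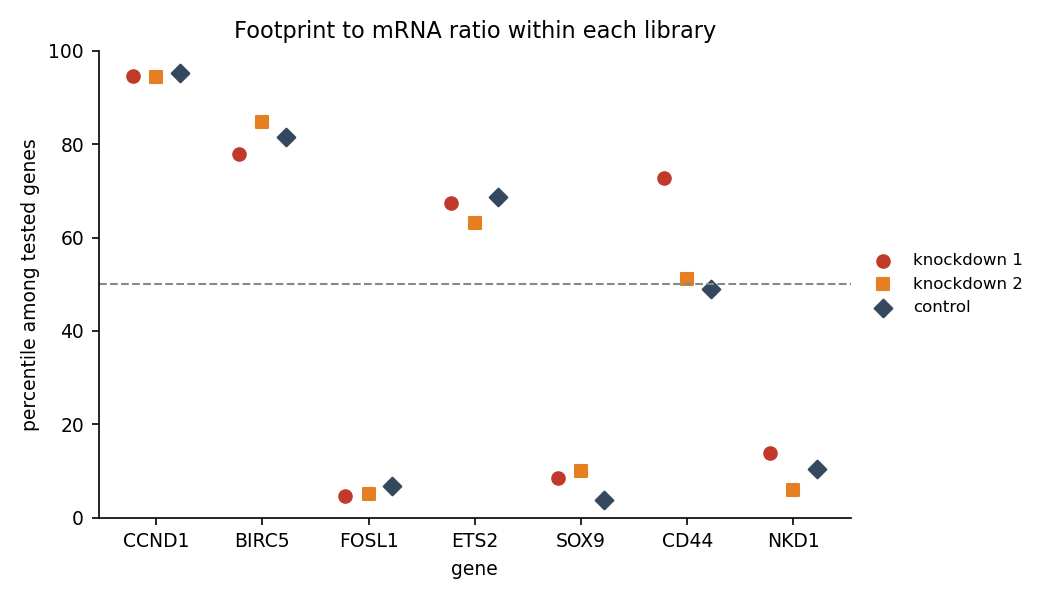
Percentile of the footprint to mRNA ratio of each member among all tested genes, with 1 point for each numbered pair of libraries and a dashed line at the middle of the table. CCND1, BIRC5 and ETS2 lie above the middle in every library, and FOSL1, SOX9 and NKD1 below the 15th percentile.

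Neighbouring genes of the same circuits were counted by list. No gene of any list passed in limma for footprints, mRNA or translational efficiency. Which of these changes is described differs from list to list. Of 60 other Wnt targets 17 were in the expression table and 16 were tested. Their median footprint change of -0.25 was near that of all genes, with 7 lower and 2 higher than the control in both libraries, beside 51.2% and 17.5% of all genes. Translational efficiency was lower in both numbered pairs for 5 of the 16 and higher for 5, beside 52.0% and 18.7% of all genes. Its median log2 change was 0.02, beside -0.27 over all genes. TIAM1, an exchange factor for RAC, had the smallest footprint p of the list, with footprint values of 13.1 and 11.4 in the knockdown libraries and 5.71 in the control. AXIN2, LGR5, ASCL2 and RNF43 were not in the table. Of 40 known MYC targets 23 were tested, and their median footprint change was -0.27, with 16 lower and 2 higher in both libraries, beside 51.2% and 17.5% of all genes.

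BIRC5 belongs to the chromosomal passenger complex, whose kinase is AURKB. Of 19 tested genes of this complex and of mitosis, 12 had mRNA below the control in both libraries and 0 above it, beside 29.9% and 30.9% of all genes, with a median log2 change of -0.65 in knockdown 1 and -0.04 in knockdown 2. AURKB mRNA stood at 57.6 and 84.7 in the knockdown libraries, against 92.1 in the control, and MYBL2 mRNA at 21.5 and 76.1, against 84.3. The mRNA of BIRC5 had log2 differences of -0.54 and -0.13. In translational efficiency 8 genes of this list were lower and 5 higher in both numbered pairs, beside 52.0% and 18.7% of all genes. Of 17 tested AP-1 and ETS family genes, translational efficiency of 13 was lower than the control in both numbered pairs and of 3 higher. The shares of all genes were 52.0% and 18.7%, and the median was -0.52 beside -0.27. In footprints 9 of these genes were lower and 1 higher in both libraries, beside 51.2% and 17.5% of all genes. In mRNA 5 were lower and 7 higher, beside 29.9% and 30.9% of all genes. ELF3, an epithelial ETS factor, had footprint values of 39.0 and 32.02 in the knockdown libraries and 78.5 in the control, and mRNA values of 14.04 and 9.73, against 7.86 in the control. Of 11 tested genes of the cyclin D and RB circuit, 8 had lower footprints in both libraries and 1 higher, beside 51.2% and 17.5% of all genes, with a median of -0.35 beside -0.28. CDK4, the kinase partner of cyclin D1, had footprint values of 564 and 504 in the knockdown libraries, against 586 in the control. Of 5 tested genes that splice CD44, make its ligand or link it to the cytoskeleton, 2 had lower footprints in both libraries and 0 higher, with a median of -0.16, beside the same shares and median of all genes.

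RNA recovered with the YTHDF1 antibody was compared with input in 1 library each, so differences have no replicate check and no test. The deposited list of 3931 rows holds only genes with an input of at least 1.00 FPKM (fragments scaled to transcript length and library size) and a ratio of antibody over input of at least 1.5. MYC, CCND1, ETS2 and NKD1 were in it. Of the 7 tested members, 3 were listed, beside 35.6% of all tested genes. SOX9, CD44, FOSL1 and BIRC5 were not listed, which gives no value for them.

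MYC, the transcription factor that drives growth and ribosome production, had 82.7 FPKM with the antibody and 43.0 FPKM in the input. Its ratio in the authors' deposited table was 1.92, rank 2716 of 3931. CCND1 had 112 FPKM with the antibody and 73.2 FPKM in the input. Its ratio of 1.53 in the authors' deposited table was just inside the lower end of the list, at rank 3836. ETS2 had 21.3 FPKM with the antibody and 11.7 FPKM in the input, a ratio of 1.81 in the authors' deposited table. NKD1 had 5.87 FPKM with the antibody and 2.37 FPKM in the input, and its ratio of 2.48 in the authors' deposited table was the one member ratio above the list median of 2.28. The member with the highest ratio was thus the one with the lowest input, and with 1 FPKM added to both values its ratio was 2.04.

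**Figure D4:**
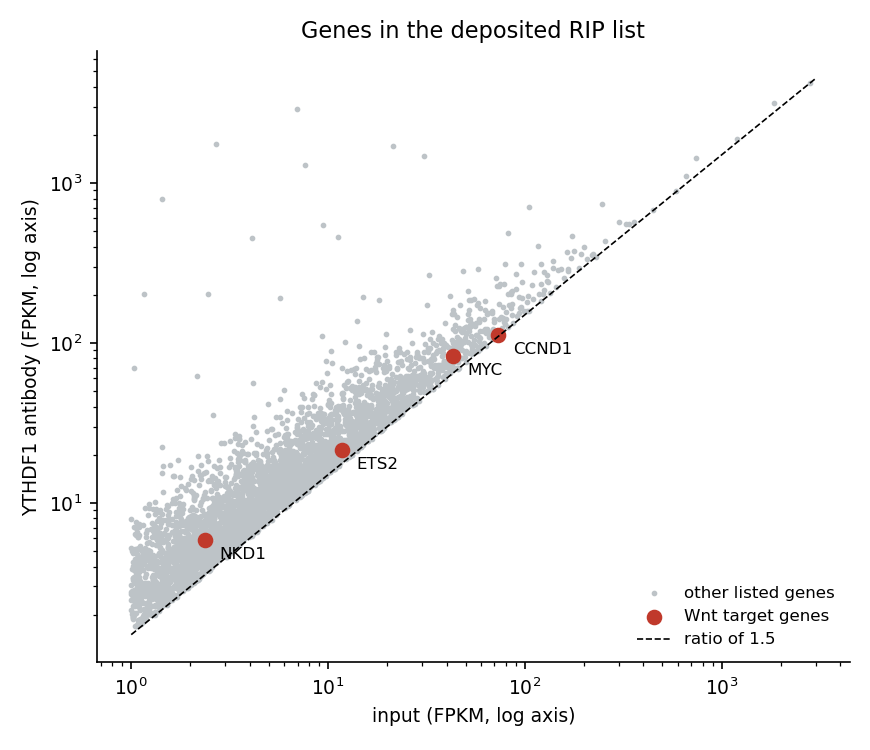
Level with the YTHDF1 antibody against level in the input for each gene of the deposited RIP list, in FPKM on log axes, with the dashed line at the ratio of 1.5 where the list ends. MYC and CCND1 are among the more abundant listed RNAs, with ratios of 1.92 and 1.53, and CCND1 lies just above that line.

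The input level of MYC (chromosome 8) lay at the 94.3rd percentile of the list, although the expression table does not hold it. MYC was not alone in this. Of the 227 listed genes with an input at or above that of MYC, 70 were absent from the expression table (30.8%), and of all listed genes 1493 (38.0%). Of the other Wnt targets 22 were in the RIP list, and 11 of these, AXIN2 among them, were absent from the expression table. The feedback inhibitor AXIN2 had 16.7 FPKM with the antibody and 5.43 FPKM in the input, a ratio of 3.07 in the authors' deposited table. Why these genes are not in the expression table was not tested.

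The methylation of the members was read from the authors' peak windows, whose positions run along a transcript that the files do not name, in steps of 25 bases. Peak ratios of immunoprecipitate over input below are the authors', are listed per replicate and start at 3.00 in both lists. The members held 21 windows in replicate 1 and 19 in replicate 2, and 17 of each overlapped a window of the other replicate by at least 1 base. That is 81.0% and 89.5% of them, beside 74.5% and 72.6% of all windows. Both replicates share an input: in all 5972 windows with the same ends in both lists, the input signals were equal within 1e-06. Replicates of a ratio therefore differ in the immunoprecipitate alone where their windows have the same ends. Having a peak in both replicates was common, at 72.5% of all tested genes, and was seen in 6 of 7 tested members and in MYC.

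Each window comes with a 5-letter motif, of which the lists use 12. All have A or G in the first and second place, then AC, then A, C or T. In 15 of the 17 member windows shared by both replicates, both replicates gave the same motif position. No such share was computed over all genes. In the same 15 windows the summits of the replicates also lay within 15 bases of each other. The motifs of 9 of these windows are shown because they mark where along each RNA the replicates met, with the candidate methylated adenosine in capitals.
CCND1 position 661: gaAca
CCND1 position 3790: agAct
BIRC5 position 1855: agAca
FOSL1 position 1281: agAct
ETS2 position 977: agAca
ETS2 position 1878: ggAcc
SOX9 position 455: ggAct
SOX9 position 2094: aaAca
CD44 position 2261: gaAca
Among those shown, FOSL1 and CCND1 carried 1 motif in common, as did BIRC5 and ETS2, and CCND1 and CD44. Among those not shown, SOX9 at position 73 and ETS2 at position 3520 also had the same motif. Over all windows of replicate 1 no motif stood out, since each of the 12 accounted for between 6.04% and 11.5% of them. The motif lay inside its window in 38 of 40 member windows, beside 80.9% of all windows in both lists.

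CCND1, SOX9 and ETS2 had the longest covered stretches of the members. CCND1 windows covered 1300 and 1150 bases in replicate 1 and replicate 2, and ETS2 windows 1200 and 1175 bases. CCND1 had a window from 75 to 1075 in replicate 1 and from 100 to 1075 in replicate 2, with ratios of 8.48 and 8.34. In replicate 1 it spanned 1000 bases, and 10 of 24494 windows, itself included, were at least as wide. Its summit was at base 626 in both. CCND1 had 5 windows in replicate 1 and 3 in replicate 2. Those from 2775 to 2825 and from 3850 to 3925, with ratios of 10.05 and 8.03, were listed in replicate 1 alone. The first of them had an input signal of 16.1, at the 5.33rd percentile of the list. SOX9 had 5 windows in each replicate, covering 1275 and 1350 bases, and each of the 5 overlapped its counterpart. For the window beginning at 725 in replicate 1 and 575 in replicate 2, summits lay 199 bases apart. Its motif positions were 801 and 1096. The window of SOX9 that begins at 25 had ratios of 12.2 and 10.9, and the one near 2100 had ratios of 11.5 and 13.4. ETS2 had 4 windows in replicate 1 and 5 in replicate 2. Its broad windows starting at 925 had ratios of 6.30 and 5.92.

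CD44, FOSL1 and MYC had few windows. CD44 had 1 window per replicate with its summit at base 2251 in both, with ratios of 9.43 and 8.92. FOSL1 had 1 shared window at 1225, with ratios of 4.98 and 5.55, and a second, from 500 to 825, in replicate 2 alone, whose ratio of 3.03 was just above the start of the list. MYC had 1 window per replicate, from 650 to 700 and from 625 to 700, with ratios of 4.48 and 4.55. NKD1 had 2 windows in replicate 1, with ratios of 3.32 each, and none listed in replicate 2. Those ratios also lay close to the start of the list.

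The highest ratios came from windows with little input. BIRC5 had a window at 1825 with ratios of 24.7 and 31.6, where the input signal was 6.56 and 8.22 and lay at the 2.76th and 2.69th percentile of each list. Its other window, at 1275, had ratios of 4.001 and 3.56 with input signals of 169 and 141. There the summits of the replicates lay 66 bases apart, with motif positions of 1341 and 1279. The ETS2 window from 325 to 375 had a ratio of 36.5 at an input signal of 4.78, and was listed in replicate 2 alone. Windows were thus also listed for members outside the RIP list, as SOX9, CD44, FOSL1 and BIRC5 each had windows in both replicates, while listed NKD1 had none in replicate 2. Among all tested genes, a peak in both replicates was found in 89.2% of those listed in RIP and in 63.3% of those not listed.

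**Figure D5:**
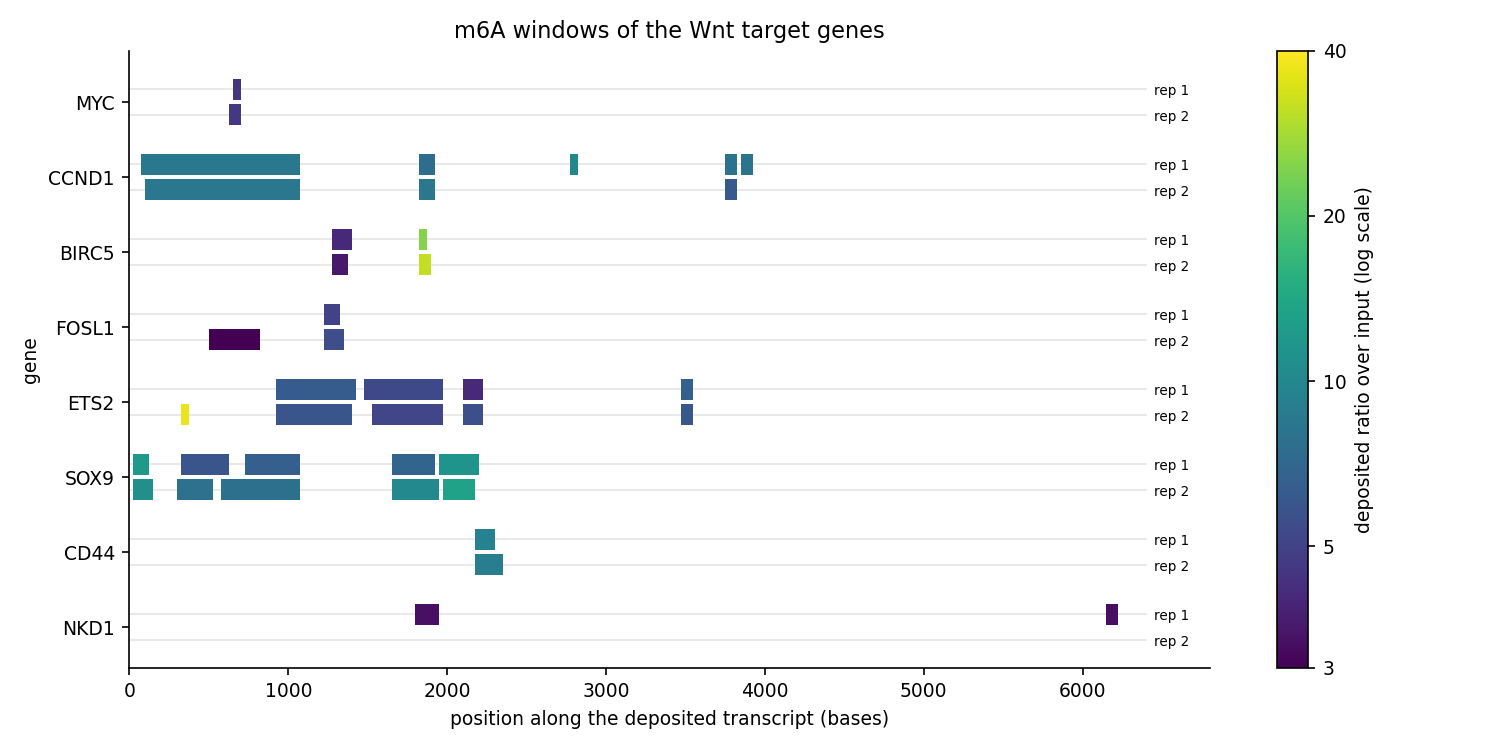
Position of each m6A window along the transcript of the 8 members, in bases, with replicate 1 above replicate 2 for each gene and colour giving the deposited ratio over input on a log scale. Windows of SOX9, CD44, MYC and BIRC5 pair up between replicates, and the windows of NKD1 appear in replicate 1 alone.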

How the data were processed

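Values were used as deposited by the authors. The expression table holds a signal per gene in a unit left unnamed in the file headers, and control values in it are at least 0.500. The RIP list gives FPKM and a ratio as deposited by the authors, and the m6A lists give signal and ratio of each window, where the ratio equals one signal over the other. Per the submitters' processing notes STAR and GRCh38 were used; for the m6A windows no caller is named in the sources used here.

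Footprints and mRNA were put on the log2(value + 1) scale, 12 rows with damaged names and 132 genes with a mean under 1 were left out, and 6782 genes were fitted with limma 3.58.1 in R 4.3.3 (trend, 1 mean per assay and condition, 2 residual degrees of freedom). Having 1 library, each control is taken to have the spread of the knockdown libraries. Footprints and mRNA shared 1 spread per gene, so a gene has the same SE in both, and footprint p-values also draw on the mRNA spread. The median SD of the knockdown pair on the log2 scale was 0.354 in footprints and 0.225 in mRNA. Benjamini-Hochberg adjustment of 2-sided p-values ran over all tested genes. The fit was tested on simulated data with the same spread in control and knockdown libraries, so that test does not check the assumed spread of the control.

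Members, lists and tests were chosen with earlier results of these data known. All 8 members were named; of other lists, counts, medians and up to 3 genes by smallest p among genes whose knockdown libraries lie on the same side of the control, plus AXIN2, LGR5, ASCL2, RNF43 and CDK4, chosen after their values were seen. Gene positions are from RefSeq, GRCh38.p14. The RIP list has 8 damaged names, left out. Alternatives covered the pseudocount, filter, scaling, left-out libraries and the replicate number.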

Additional observations from a re-analysis of the deposited data

How the results depend on the processing

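No member passed in limma under any setting for footprints, mRNA or translational efficiency. Over all genes, 2 passed for footprints as deposited and 0 with a pseudocount of 0.1, without the filter on low values, with median centring or with quantile normalisation. Leaving out 1 knockdown library gave 2 to 80 genes for footprints, 0 to 1 for mRNA and 0 to 1 for translational efficiency. A replicate block in the model gave 30 genes passing for footprints, 2 for mRNA and 6 for translational efficiency, none of them a member. The numbers are not stated to pair cultures, and the difference between knockdown libraries correlated at 0.37 across genes between assays. Of 77 footprint, 77 mRNA and 70 efficiency values of members under alternatives, 74, 74 and 64 kept their direction. CD44 footprints reversed to 0.26 with median centring, 0.16 with quantile normalisation and 0.10 without footprint knockdown 2, against -0.15 without knockdown 1. Without mRNA knockdown 1, mRNA of SOX9, CD44 and ETS2 stood at -0.26, 0.19 and 0.19, and efficiency of CD44 at -0.21; without mRNA knockdown 2 these were 0.99, -0.59, -0.65 and 0.57. Efficiency of NKD1 stood at 0.043 with median centring, 0.087 with quantile normalisation, 0.10 without footprint knockdown 2 and -0.57 without footprint knockdown 1. Efficiency of SOX9 stood at -0.11 without footprint knockdown 1 and -0.19 without mRNA knockdown 2, with a highest value of 1.06 without mRNA knockdown 1. Causes were not tested. At a RIP ratio of at least 2, 1 member was listed, NKD1, against 4. Adding 1 FPKM moved member RIP ratios to between 1.52 and 2.04. Of 40 member m6A windows, 9 had a ratio of at least 10 and 31 of at least 5, 19 to 21 were left with 1 replicate, and 34 were shared under a stricter rule on the overlap of the shorter window, as with 1 base. Each value of the control rests on 1 library that cannot be left out, and depth is unknown, so levels near the pseudocount, as for NKD1, limit what can be read.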
